A study of Mus musculus with 15 samples.

Results

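The genes described here were the enzymes of de novo lipogenesis and their regulators, 9 of the 18804 genes in the count table. They were taken by name and not by a limit on a measured value, with earlier results of these data known. There were 6 enzymes, Acly, Acss2, Acaca, Acacb, Fasn and Me1, and 3 regulators, Srebf1, Mlxipl and Thrsp. All 9 passed the filter on low counts, which left 14293 genes for testing. RNA was sequenced from cultured adipocytes of C57BL/6J mice, differentiated from mesenchymal stem cells (MSCs) that, by the study's methods, were isolated from ears. Every culture was induced with methylisobutylxanthine, dexamethasone, insulin and a thiazolidinedione, troglitazone by the labels, and every culture was harvested on day 16 of differentiation. Each group had 5 libraries. Cells of the day 0 group were kept at 37°C, those of the day 12 group went to 31°C on day 4 of differentiation, and those of the day 1 group on day 15. The stage of differentiation at the move therefore differed along with the time spent at 31°C, and the effects of these cannot be told apart in this design. The sources used here do not tell if libraries represent different mice or different dishes, so the p-values measure the spread between libraries, which may be technical.

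De novo lipogenesis builds fatty acids from acetyl-CoA in the cytosol. ATP citrate lyase (Acly) and acetyl-CoA synthetase (Acss2) make acetyl-CoA from citrate and from acetate, acetyl-CoA carboxylase makes malonyl-CoA from it, and fatty acid synthase (Fasn) joins these units into palmitate with NADPH that malic enzyme (Me1) helps to supply. In adipocytes the genes of these enzymes are known targets of SREBP1, the product of Srebf1, and of the glucose-responsive factor ChREBP, the product of Mlxipl. On the mouse genome build GRCm38, chromosome 11 holds Fasn (120805846 to 120824547, minus strand), Acaca (84129672 to 84401651, plus), Acly (100476353 to 100528000, minus) and Srebf1 (60199089 to 60222581, minus). Acacb (114146535 to 114250761) and Mlxipl (135089890 to 135138382) lie on the plus strand of chromosome 5. Me1 lies on chromosome 9 (86581371 to 86695953, minus), Acss2 on chromosome 2 (155517948 to 155585724, plus) and Thrsp on chromosome 7 (97412938 to 97417730, minus). The study asked how cultured adipocytes adapt to a cool temperature, lipid synthesis included.

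Total counts per library ranged from 64648178 to 133270973. Levels are given as CPM, counts scaled to a common library size with TMM factors, which are set by the bulk of the genes. The TMM factors ran from 0.946 to 1.09, and those of the 5 day 12 libraries were the highest. Cirbp and Rbm3, cold-inducible RNA binding protein genes, rose at day 1 (log2 fold change 2.58 and 1.96) and at day 12 (1.91 and 2.76). All 10 adipocyte markers were detected, with summed levels of 5503 to 6073 CPM at day 0, 6493 to 6990 at day 1 and 5017 to 5606 at day 12. These sums cover members that moved both ways: at day 12 against day 0, 5 of the 10 were called lower, Cidec (log2 fold change −1.59), Adipoq (−1.24), Cfd (−1.07), Lep (−0.69) and Pparg (−0.59), and 2 were called higher, Retn (1.75) and Fabp4 (0.97). The summed level of 6 fibroblast or progenitor markers ran from 3796 to 4171, from 3401 to 3652 and from 2956 to 3299.65 CPM in the same order. Its members moved both ways as well. At day 12 against day 0, Ly6a (591 to 221 CPM) and Dlk1 (38.3 to 20.4) were called lower and Col1a1 fell (2649 to 1975). Pdgfra rose (562 to 712), and Thy1 and Cd34 did not pass the test. Of the 2 mesothelial markers tested (of 4), Msln rose at day 12 against day 0, from a mean of 0.628 to 29.3 CPM, which moved the sum of the 4 from at most 1.99 CPM at days 0 and 1 to between 23.0 and 37.9. Krt19 stood at 1.02 and 1.07 CPM (edgeR adjusted p = 0.754), Upk3b was near 0 and Wt1 was at 0 in every day 12 library. Chondrocyte markers summed to 234 to 325 CPM over the 15 libraries, macrophage markers to 5.22 to 13.04 and endothelial markers to at most 1.37. These sums also hide changes of members at day 12 against day 0. Acan (56.3 to 28.8 CPM) and Sox9 (84.2 to 48.8) were called lower, while Col2a1 rose (149 to 182). Csf1r (0.199 to 0.562) was called higher, while Cd68 fell (7.50 to 5.14). The endothelial markers Pecam1 (0.324 to 0.810) and Kdr (0.0928 to 0.261) were called higher. Markers of keratinocytes, muscle, brown adipocytes and hepatocytes stayed at or below 0.381 CPM in every library. The part that changes in the mix of cells had in the results below was not tested, and in whole cultures fewer cells of a type and less RNA per cell cannot be told apart.

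The 9 lipogenic genes did not move as a group. At day 1 of the cool exposure 2 rose and 6 fell, at day 12 again 2 rose and 6 fell against day 0, and between days 1 and 12 there were 4 that rose and 3 that fell, all at an adjusted p under 0.05 in the quasi-likelihood test of edgeR. With scaling by total counts the split was 3 up and 4 down at day 12 against day 0 and 6 up and 2 down between days 1 and 12, the latter also with scaling to reference genes, which were Hprt, Tbp and Ppia. Most of these differences were modest. With a fold change over 1.5 also required, the study's own limit and the meaning of "called" here, Acss2 and Acacb were called lower at day 1, Acss2 was called lower at day 12, and Thrsp was called lower at day 12 than at day 1, while 0 were called higher, by edgeR or by DESeq2. A stricter test, against the fold limit itself (glmTreat), kept only the Thrsp call. The median log2 fold change of the 9 genes was −0.25 at day 1 and −0.38 at day 12 against day 0, and 0.15 at day 12 against day 1. The medians over all genes tested were −0.0088, 0.012 and 0.0092.

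Large shares of all genes passed the same tests. At day 1, 35.3% of all genes tested passed the adjusted p upward and 36.2% downward, and 7.71% were called higher and 13.4% lower. At day 12 against day 0 the shares were 39.2% upward and 37.4% downward, with 13% called higher and 16.2% called lower. At day 12 against day 1 they were 34.3% upward and 32.8% downward, with 10.6% called higher and 8.53% called lower. Of the 9 genes, 2 called lower at day 1 and 1 called lower in each of the other comparisons stand beside these shares, and no pattern particular to the list is read from them. Both comparisons with day 0 use the same 5 control libraries.

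**Figure D1:**
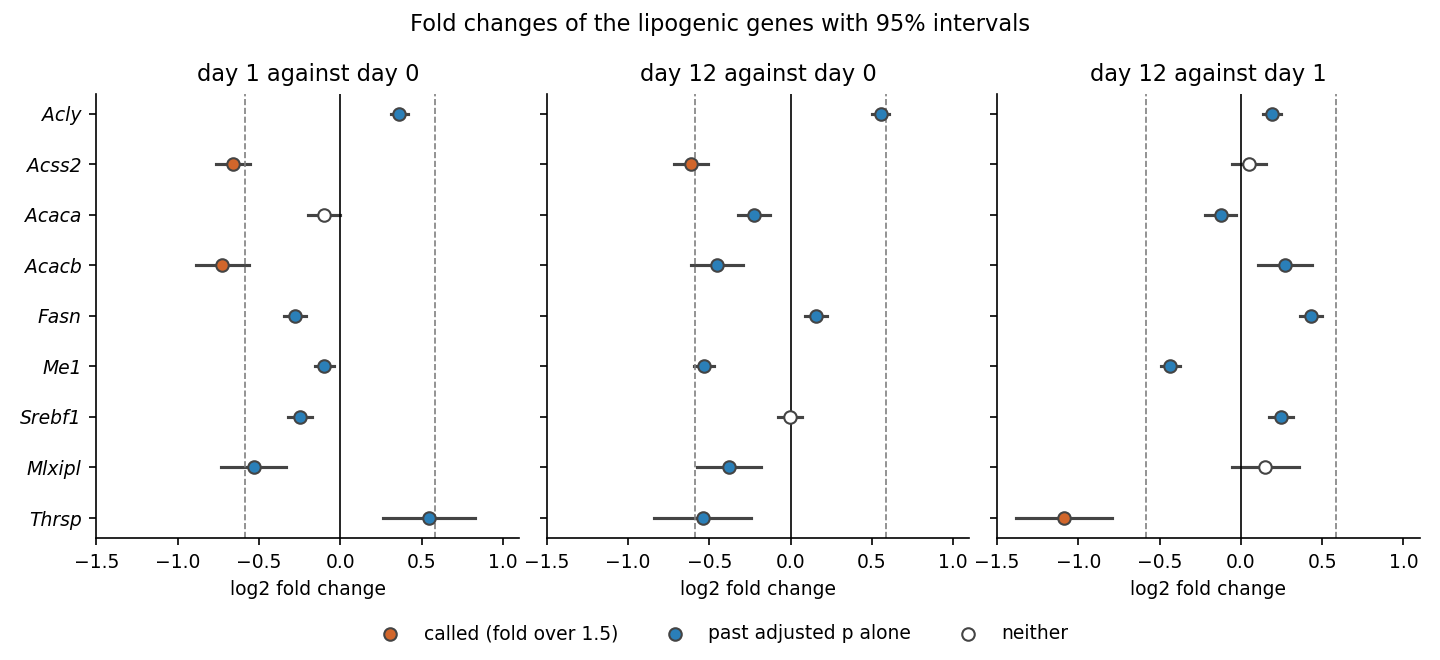
Log2 fold changes of the 9 lipogenic genes (horizontal axis) in 3 comparisons, with 95% intervals from edgeR. Dashed lines mark the fold limit of 1.5, filled orange points are called genes, filled blue points passed the adjusted p alone, and open points passed neither. Acly lies right of 0 in every comparison, Acss2 and Acacb lie left of the lower limit at day 1, and Fasn, Acacb and Srebf1 lie right of 0 at day 12 against day 1.

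Acly and Acss2, the sources of cytosolic acetyl-CoA, moved in opposite directions at both times. Acly stood at 141, 138, 136, 139.9 and 139 CPM in the 5 day 0 libraries, at 175, 175, 182, 189 and 173 at day 1, and at 204, 203, 203, 203 and 208 at day 12. The 3 groups were fully separate and increased with the time at 31°C. Against day 0 the log2 fold change was 0.36 at day 1 (SE 0.0259, edgeR adjusted p = 7.29e-12) and 0.55 at day 12 (SE 0.0259, edgeR adjusted p = 1.37e-15), a mean of 139 ± 1.98 CPM (SD, n = 5) becoming 179 ± 6.49 and then 204 ± 1.92. Neither difference reached the fold limit, and the second lay so near it that Acly was called higher at day 12 when libraries were scaled by total counts (0.75) or to reference genes (0.61). The further rise from day 1 to day 12 was 0.19 (edgeR adjusted p = 5.95e-07), or 0.36 and 0.34 with those scalings.

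Acss2 stood at 30.6, 30.3, 32.4, 30.6 and 32.0 CPM at day 0, at 16.7, 20.4, 20.2, 20.2 and 21.1 at day 1, and at 19.7, 21.8, 19.9, 19.3 and 21.3 at day 12. Every cool library lay below every library kept at 37°C, while the day 1 and day 12 libraries overlapped. Acss2 fell by 0.66 on the log2 scale at day 1 (SE 0.0502, edgeR adjusted p = 2.42e-11) and by 0.61 at day 12 (SE 0.05002, edgeR adjusted p = 6.25e-11). The day 12 call did not hold with scaling by total counts (−0.42) or to reference genes (−0.56). Days 1 and 12 differed by 0.049 (95% interval −0.057 to 0.15, edgeR adjusted p = 0.414), an interval that bounds the difference but does not show that the levels were equal. With the other 2 scalings this difference passed, at 0.22 and 0.20. Exon bases that Acss2 shares with neighbouring genes made up 9.12% of its exons, and whether counting used strand was not stated.

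Acaca and Acacb encode the carboxylases ACC1, which makes malonyl-CoA for synthesis in the cytosol, and ACC2, which sits at the mitochondrial outer membrane and whose malonyl-CoA restrains fatty acid import. Acaca stood at 231, 221, 259.5, 235 and 221 CPM at day 0, at 206, 226, 236, 229 and 191 at day 1, and at 208, 201, 195, 196 and 197 at day 12. The day 1 libraries spanned much of the range of both other groups, and the day 12 libraries all lay below those of day 0. The difference at day 1 did not pass as reported (log2 fold change −0.10, 95% interval −0.20 to −0.0039, edgeR adjusted p = 0.0583). It did pass with scaling to reference genes (−0.20) and with a replicate block, and could pass when a single library was left out. Acaca fell by 0.23 at day 12 against day 0 (SE 0.0473, edgeR adjusted p = 0.000137), a difference that did not pass with scaling by total counts (−0.033, edgeR adjusted p = 0.517). Its fall of 0.13 from day 1 to day 12 (edgeR adjusted p = 0.0232) turned to 0.048 and 0.030 with scaling by total counts and to reference genes, neither passing.

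Acacb, at lower counts, moved further. It stood at 14.0, 13.2, 14.2, 12.7 and 11.2 CPM at day 0, at 8.53, 7.10, 8.02, 8.48 and 7.45 at day 1, and at 10.9, 10.9, 8.61, 8.62 and 8.82 at day 12. No groups overlapped, although the lowest day 12 library lay close above the highest day 1 library. Acacb fell by 0.73 on the log2 scale at day 1 (SE 0.0789, edgeR adjusted p = 1.42e-08), the largest decrease among the 9 genes in that comparison. At day 12 it was lower than day 0 by −0.45 (SE 0.0777, edgeR adjusted p = 1.27e-05) and higher than day 1 by 0.27 (SE 0.0805, edgeR adjusted p = 0.00453). These were −0.26 and 0.45 with scaling by total counts, and the second was 0.43 with reference genes.

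Fasn and Me1 moved apart over the 12 days. Fasn stood at 326, 319, 334, 343 and 334 CPM at day 0, at 268, 264, 293, 281 and 262 at day 1, and at 378, 381, 365, 370.1 and 349 at day 12. The order of the groups was day 1, day 0, day 12, with no overlap. Fasn fell by 0.28 on the log2 scale at day 1 (SE 0.0322, edgeR adjusted p = 4.13e-08) and rose by 0.15 at day 12 against day 0 (SE 0.0321, edgeR adjusted p = 0.000127), or by 0.35 with scaling by total counts. The difference between the times was 0.43 (SE 0.0322, edgeR adjusted p = 2.2e-11), under the fold limit as reported and just past it with scaling by total counts (0.60) or to reference genes (0.59).

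Me1 stood at 323, 308, 319.8, 341 and 321 CPM at day 0, at 291, 293, 317, 307 and 299.8 at day 1, and at 223, 221, 228, 217 and 227 at day 12. The day 1 libraries overlapped those of day 0, and the day 12 libraries lay well below all others. Me1 fell by 0.098 on the log2 scale at day 1 (SE 0.0291, edgeR adjusted p = 0.00457) and by 0.53 at day 12 (SE 0.0293, edgeR adjusted p = 3.5e-14). Of its 0.53, a difference of −0.43 arose between days 1 and 12 (edgeR adjusted p = 3.58e-12). With scaling by total counts the day 12 value was −0.34 against day 0 and −0.26 against day 1, and with reference genes the day 1 value was −0.20 and the last −0.28. The 6 enzymes together summed to 1031 to 1102 CPM at day 0, to 954 to 1056 at day 1 and to 1011 to 1044 at day 12, ranges that overlapped although the enzymes within them moved in both directions.

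**Figure D2:**
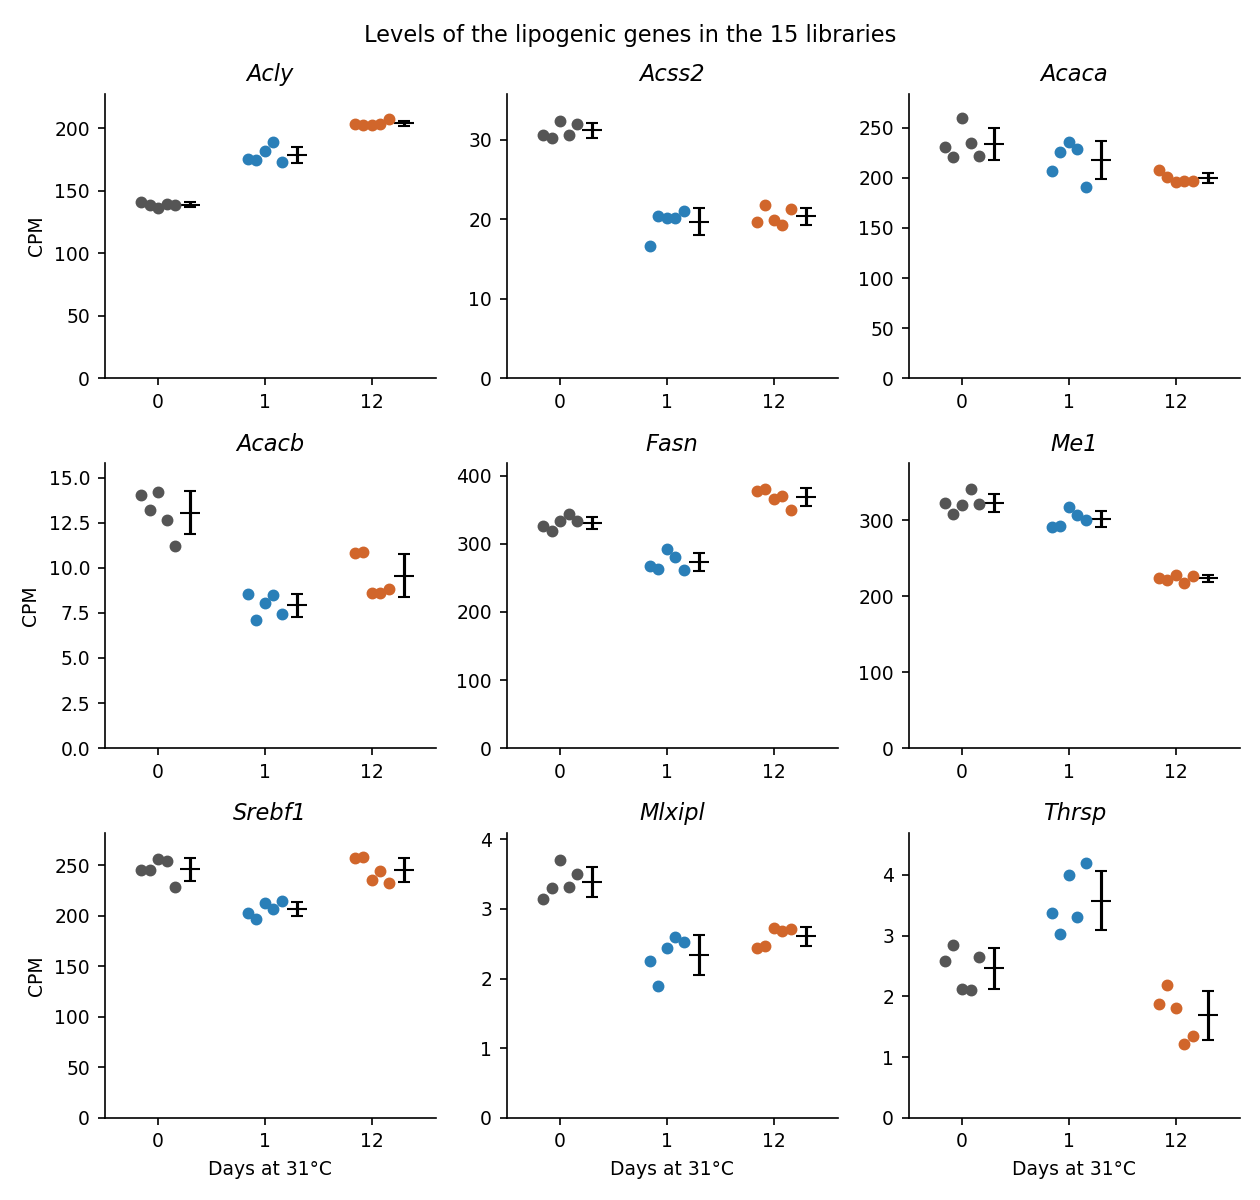
Levels of the 9 lipogenic genes in CPM (vertical axes from 0) by days at 31°C, 1 point per library, with the mean and SD of the 5 libraries as a bar at the right of each group. Acly increases from 139 to 204 CPM over the 3 groups, Me1 declines from 323 to 223 CPM, and Fasn and Srebf1 are lowest at day 1.

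Srebf1 was lowest at day 1. Its libraries stood at 246, 245, 257, 254 and 228 CPM at day 0, at 203, 197, 213, 207 and 215 at day 1, and at 257, 258, 235, 245 and 233 at day 12. All day 1 libraries lay below all others, while those of days 0 and 12 overlapped. Srebf1 fell by 0.25 on the log2 scale at day 1 (SE 0.0353, edgeR adjusted p = 9.43e-07) and was higher by 0.25 at day 12 than at day 1 (SE 0.0354, edgeR adjusted p = 1.35e-06), the latter 0.42 and 0.40 with the other 2 scalings. Days 12 and 0 differed by −0.0025 (95% interval −0.075 to 0.070, edgeR adjusted p = 0.952). With scaling by total counts Srebf1 passed as higher at day 12 (0.19, edgeR adjusted p = 3.22e-05), and to reference genes the value was 0.053 (edgeR adjusted p = 0.266). Counts per gene do not separate the SREBP1a and SREBP1c transcripts, and Srebf1 shares 3.11% of its exon bases with other genes.

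Mlxipl was measured at low counts, 136 to 396 per library. It stood at 3.14, 3.31, 3.70, 3.31 and 3.50 CPM at day 0, at 2.25, 1.89, 2.44, 2.59 and 2.53 at day 1, and at 2.43, 2.47, 2.72, 2.68 and 2.72 at day 12. Both cool groups lay below day 0 in every library and overlapped each other. Mlxipl fell by 0.53 on the log2 scale at day 1 (SE 0.0966, edgeR adjusted p = 3.06e-05) and by 0.38 at day 12 (SE 0.0956, edgeR adjusted p = 0.000958), the latter not passing with scaling by total counts (−0.19, edgeR adjusted p = 0.0781). The day 1 difference was called with scaling to reference genes (−0.63) and within the larger of 2 library number series (−0.61). Day 12 minus day 1 was 0.15 (95% interval −0.053 to 0.36, edgeR adjusted p = 0.183), and it passed at 0.32 and 0.30 with scaling by total counts and to reference genes. ChREBP alpha and beta transcripts were not separated by these counts.

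Thrsp, a thyroid hormone responsive gene whose product is tied to lipogenic gene activity, moved in opposite directions at the 2 times. It stood at 2.59, 2.84, 2.11, 2.10 and 2.64 CPM at day 0, at 3.37, 3.03, 3.99, 3.31 and 4.19 at day 1, and at 1.87, 2.18, 1.81, 1.21 and 1.35 at day 12. Day 1 lay above both other groups in every library, and days 0 and 12 overlapped at their edges. Thrsp rose by 0.55 on the log2 scale at day 1 (SE 0.136, edgeR adjusted p = 0.00101) and fell by 0.54 at day 12 against day 0 (SE 0.143, edgeR adjusted p = 0.00154), or by 0.35 with scaling by total counts. The day 12 libraries were lower than those of day 1 by −1.09 (SE 0.142, edgeR adjusted p = 3.46e-07), the largest difference of any lipogenic gene in any comparison. Counts ran from 85 to 428 per library, and either comparison with day 0 sat so near the fold limit that leaving out 1 library could pass it. The day 1 value was called without day 0 replicate 2 (0.60) or day 1 replicate 2 (0.60), and the day 12 value in fits that left out replicate 3 (−0.59) or replicate 4 (−0.59) of day 0, or replicate 2 of day 12 (−0.65).

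Ratios of the genes within a library do not depend on how libraries are scaled. Their size does depend on the gene length used, which was the same in every group. At day 0, Acly and Acss2 stood at 31.4 and 14.5 CPM per kb of transcript. By the length of all annotated exons they stood at 26.3 and 3.07. Acly counts per kb of transcript were 2.04 to 2.24 times those of Acss2 at day 0, 3.99 to 5.08 times at day 1 and 4.52 to 5.11 times at day 12, so both cool groups lay above every day 0 library. The Fasn to Acly ratio had a median of 1.06 at day 0, 0.665 at day 1 and 0.802 at day 12, with 3 separate groups. Fasn to Me1 was 0.329 to 0.342 at day 0, 0.285 to 0.303 at day 1 and 0.503 to 0.565 at day 12. The Fasn to Acaca ratio was likewise highest at day 12, 1.68 to 1.80 against 1.104 to 1.43 in the 10 other libraries, where days 0 and 1 overlapped. Acaca to Acacb ran from 15.2 to 18.2 at day 0, 22.3 to 29.4 at day 1 and 17.1 to 21.0 at day 12, so the day 1 group stood apart and the other two overlapped. Srebf1 to Mlxipl was higher in all cool libraries, 67.1 to 89.1 against 54.9 to 65.9 at day 0. These are descriptions with no test of their own.

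**Figure D3:**
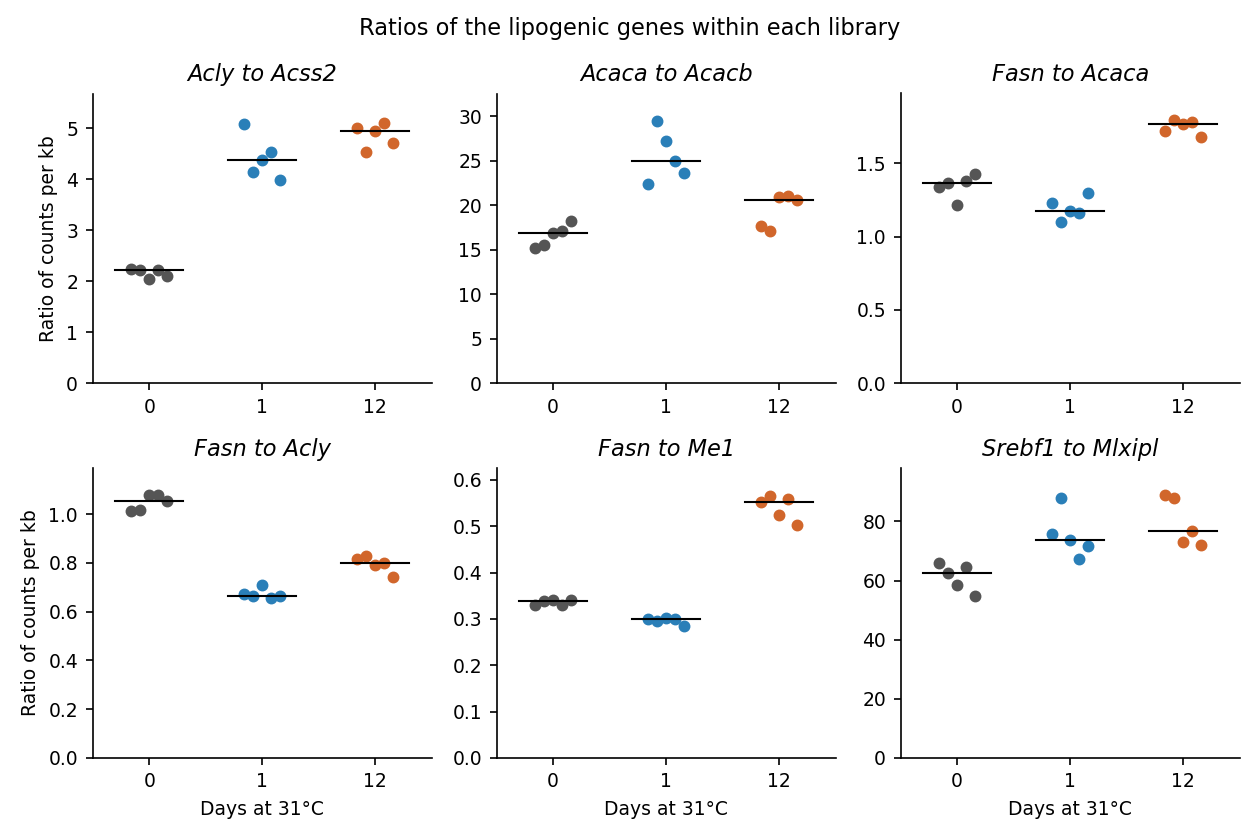
Ratios of counts per kb of transcript between pairs of lipogenic genes (vertical axes from 0) by days at 31°C, 1 point per library and a line at the median of each group. Acly to Acss2 moves from a median of 2.21 to 4.37 and 4.95, and Fasn to Me1 from 0.339 to 0.299 and then 0.553.

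Compared per length, in CPM per kb of the annotated transcript with the longest coding sequence, Me1 was highest at every time (98.1 at day 0, 91.7 at day 1, 67.9 at day 12), and Srebf1 came next (57.2, 48.1 and 57.1). Fasn (32.9 ± 0.892, SD, n = 5) was the third at day 0 and Acly (31.4 ± 0.448) the fourth, close in level but with Fasn above Acly in each library. At days 1 and 12 Acly was the third (40.4 and 46.1) and Fasn the fourth (27.2 and 36.7). Acaca (24.5, 22.9 and 21.0) and Acss2 (14.5, 9.19 and 9.51) followed. Thrsp (1.92, 2.80 and 1.32), Acacb (1.49, 0.901 and 1.09) and Mlxipl (0.936, 0.646 and 0.719) were lowest. The places of Thrsp and Acacb at days 0 and 12 were exchanged when the length of all annotated exons together was used, an alternative chosen after seeing the data.

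The starts of Fasn, Acly and Acss2 are shown because these genes of the same pathway differed in direction. Sequence before the RefSeq start (GRCm38.p6) was searched on both strands over 250 bases for CACGTG (an E-box, bound by USF factors), TCACNCCAC (a sterol element, bound by SREBP), CCAAT (bound by NF-Y) and GGGCGG (bound by SP1). Also sought were CACGTG repeated with 5 bases between, the paired form bound by ChREBP, and AGGTCA repeated with 4 bases between, bound by nuclear receptors such as LXR. Matches are in capitals, read on the strand of the gene, so ATTGG and CCGCCC are matches on the other strand. The Acss2 stretch stops where an annotated exon begins.
Fasn, chr11:120824548-120824797, minus strand: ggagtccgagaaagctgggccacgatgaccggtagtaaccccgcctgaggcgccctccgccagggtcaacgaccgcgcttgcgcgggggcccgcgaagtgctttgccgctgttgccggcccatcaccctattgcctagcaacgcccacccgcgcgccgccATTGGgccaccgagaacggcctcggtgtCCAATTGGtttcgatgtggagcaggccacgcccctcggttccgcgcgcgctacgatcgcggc
Acly, chr11:100528001-100528250, minus strand: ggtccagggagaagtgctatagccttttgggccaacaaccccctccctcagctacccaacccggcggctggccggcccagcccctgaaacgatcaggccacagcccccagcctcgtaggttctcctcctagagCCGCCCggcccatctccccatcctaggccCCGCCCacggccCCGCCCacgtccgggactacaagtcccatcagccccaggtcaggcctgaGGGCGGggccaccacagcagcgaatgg
Acss2, chr2:155517793-155517947, plus strand: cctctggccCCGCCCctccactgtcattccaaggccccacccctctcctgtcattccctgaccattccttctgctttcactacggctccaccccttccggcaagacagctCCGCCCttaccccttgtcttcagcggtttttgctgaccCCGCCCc
Fasn held 3 CCAAT matches, 2 of them overlapping, between 55 and 90 bases before its start, and no GGGCGG. Acly held 4 GGGCGG matches and no CCAAT. Acss2 held 4 GGGCGG matches and 1 CCAAT in its 250 bases, of which 3 GGGCGG matches lie in the stretch shown. Over the 13 starts of the 9 genes, CCAAT occurred in 8 windows (7 genes) and GGGCGG in 6 windows (5 genes), while 33.8% and 32.7% of all 32851 RefSeq windows hold them. CACGTG (6.02% of windows) and TCACNCCAC (1.05%) occurred only before Mlxipl among the 9, and neither paired form occurred before any of them (0 windows in all for paired CACGTG, 0.0152% for paired AGGTCA). The only windows of Acaca (84195188 to 84195437) and Acacb (114165268 to 114165517) lie inside the gene models given above. Sequence before the starts of those 2 models was therefore not searched. A match is a run of letters and no evidence of binding.

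Of the 16 genes for SREBP processing and the transcription partners of these promoters, 5 rose and 7 fell at day 1, 2 of them called lower, and 7 rose and 6 fell at day 12, with 3 called higher and 1 lower. With scaling by total counts, 10 rose and 3 fell at day 12, and to reference genes 3 rose and 10 fell at day 1. Nfya, the subunit of NF-Y that contacts CCAAT, went from a mean of 52.8 to 20.9 CPM at day 1 (log2 fold change −1.34, edgeR adjusted p = 3.05e-20) and stood at 39.2 at day 12 (−0.43, or −0.24 with total counts). Nfyc was called higher at day 12 (0.80), and Nfyb was lower at day 1 by −0.13 and did not pass at day 12 (−0.051, edgeR adjusted p = 0.296), where total counts gave 0.14 and a pass upward. Sp1 fell by 0.48 at both times, or by 0.28 at day 12 with total counts. Nr1h3, which encodes LXR alpha, an activator of Srebf1, was called lower at day 1 (−0.69) and at day 12 (−0.69), the latter not with scaling by total counts (−0.50). Insig1 (0.61), which retains the SREBP precursor in the endoplasmic reticulum and is itself an SREBP target, and Srebf2 (0.60), the regulator of cholesterol synthesis, were called higher at day 12, after values of −0.25 and −0.28 at day 1 that passed the test downward. Both day 12 calls lay at the limit: Insig1 was not called without day 0 replicate 2 (0.58), and Srebf2 was not called without that library (0.57), without day 12 replicate 4 (0.57), in a fit of only the 2 groups (0.58), or among genes of at least 10 CPM (0.58).

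Of the 6 partners and known targets of ChREBP, 5 were tested, Pklr being left out by the filter. At day 1, 3 rose and 1 fell with none called, and at day 12 none rose and 4 fell (1 and 3 with total counts, 1 and 4 with reference genes). Mlx, the obligate partner of ChREBP, was called lower at day 12 (−0.72), as was Txnip (−0.69), a glucose-responsive gene, whose mean went from 1254 CPM to 1372 and then 776 over the 3 groups. Neither was called with scaling by total counts (−0.53 and −0.50). Exon bases shared with other genes made up 19.3% of Mlx and 19.4% of Txnip. Arrdc4, a relative of Txnip, rose by 0.25 at day 1 and fell by 0.48 at day 12, with values of 0.16 for the first with reference genes and −0.28 for the second with total counts. The median of the 5 genes was 0.13 at day 1 and −0.48 at day 12.

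Among the 11 genes that supply citrate, acetyl-CoA and NADPH, 5 rose and 4 fell at day 1, and 6 rose and 5 fell at day 12, with 1 called in each direction at each time. With total counts 6 rose and 2 fell at day 12, 2 of them called higher. Pgd, of the oxidative pentose phosphate pathway, was called higher at day 1, from 218 to 418 CPM (log2 fold change 0.94), and stood at 278 CPM at day 12 (0.35, or 0.55 with total counts). G6pdx, which catalyses the first step of that pathway, rose by 0.39 and 0.34 (the second 0.53 with total counts), with 13.6% of its exon bases shared with other genes. Idh1, a cytosolic NADPH source, rose by 0.47 and 0.43, the second 0.62 and called higher with total counts. Me2, a mitochondrial malic enzyme, rose by 0.43 at day 1 and was called higher at day 12 (0.95), while cytosolic Me1 fell at both times. Me3, the other mitochondrial malic enzyme, fell by 0.27 at day 1 and rose by 0.39 at day 12, and was called higher at day 12 than at day 1 (0.66, edgeR adjusted p = 2.97e-06). Slc25a1, the mitochondrial citrate carrier upstream of Acly, fell by 0.22 and 0.23, the latter −0.036 and not passing with total counts (edgeR adjusted p = 0.247). Acss1, the mitochondrial counterpart of Acss2, was called lower at both times (−0.91 and −1.79), at means of 1.11, 0.596 and 0.325 CPM.

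Of the 11 genes for cofactor attachment, malonyl-CoA removal and control of acetyl-CoA carboxylase, 4 rose and 4 fell at day 1 with none called. At day 12, 4 rose and 5 fell, with 2 called lower. With total counts 6 rose and 2 fell at day 12, and to reference genes 3 rose and 7 fell at day 1. The 2 called lower were subunits of AMP-activated protein kinase, which phosphorylates and inhibits the carboxylases, Prkab2 (log2 fold change −1.37, from 48.5 to 18.7 CPM) and Prkaa2 (−0.88, from 12.98 to 7.03 CPM). Mid1ip1, a relative of Thrsp that promotes ACC polymerisation, did not pass at day 1 (−0.0072, edgeR adjusted p = 0.885). With reference genes its day 1 value was −0.10 and passed downward (edgeR adjusted p = 0.0416). It rose by 0.18 at day 12 (0.38 with total counts), with 25.5% of its exon bases shared with other genes.

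Of the 8 genes for elongation, desaturation and use of the product, 3 rose and 3 fell at day 1, and 2 rose and 2 fell at day 12 (4 and 1 with total counts). Scd1, the desaturase that makes oleate and palmitoleate, was called higher at both times, from a mean of 2208 CPM to 5186 (log2 fold change 1.23) and 6247 (1.501). Acsl1, which activates fatty acids, rose by 0.54 and was called higher at day 12 (0.98). Elovl6, the elongase of palmitate, fell by 0.29 at day 1 and gave −0.0099 at day 12 (edgeR adjusted p = 0.881), where total counts gave 0.18 and a pass upward. Scd3 and Scd4 were below 0.3 CPM in every group mean.

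Mitochondrial fatty acid synthesis is a separate pathway with its own enzymes. Of its 7 genes 6 were tested, no row being found here for Hsd17b8, and 4 rose and none fell at day 1 and again at day 12. With total counts 6 rose at day 12, 2 of them called higher, and to reference genes 2 rose and 1 fell at day 1. Mecr, its enoyl reductase, rose by 0.44 and was called higher at day 12 (0.60), a call lost without day 0 replicate 3 (0.57) or day 12 replicate 2 (0.58) and among genes of at least 10 CPM (0.58). Mcat, its malonyl transferase, rose by 0.51 and 0.44, the second 0.64 and called higher with total counts.

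**Figure D4:**
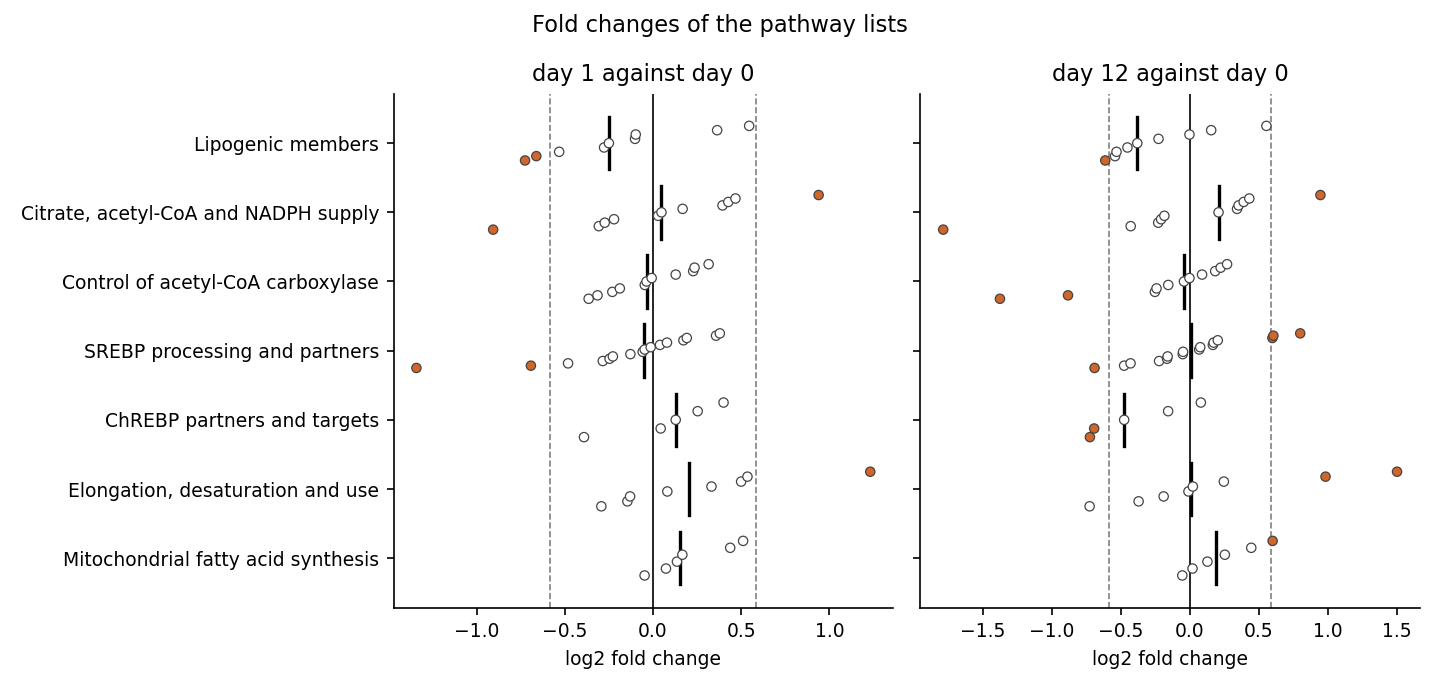
Log2 fold changes (horizontal axes) of the 9 lipogenic genes and of 6 lists of neighbouring genes against day 0, 1 point per gene tested, with called genes filled and a bar at each list's median. Most genes lie between the dashed lines of the 1.5-fold limit, and the median of the ChREBP list moves from 0.13 at day 1 to −0.48 at day 12.

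The genes most like Fasn, Srebf1 and Mlxipl in pattern were sought by the distance between pairs of log2 fold changes at days 1 and 12 against day 0, over 3 group means and among genes of at least 10 CPM. Nearest to Fasn were Slc35c2 (distance 0.0016), Trpm4 (0.012) and Ptpn13 (0.017), out of 8924 genes. Nearest to Srebf1 were Hook3 (0.0088), Sh3rf1 (0.0096) and Hmgn1 (0.010). Nearest to Mlxipl were Prkg1 (0.0098), Decr2 (0.011) and Pawr (0.013). With so few group means and so many genes, close matches can be had for most patterns.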

How the data were processed

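RNA-seq counts of 15 libraries, 5 per group by the labels, were analysed. The authors aligned reads to mm10 with TopHat2 2.0.13 and Bowtie2 2.2.1 and deposited raw HTSeq counts for each gene. The strand setting, annotation and HTSeq version were not given in the sources used here. Deposited regularised log2 values and the authors' DESeq2 tables of fold changes and p-values were not used.

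All 18804 genes were filtered with filterByExpr (minimum count 10) and 14293 were fitted together by edgeR 4.0.16 (R 4.3.3; glmQLFit and glmQLFTest) on all 15 libraries, with TMM scaling and without covariates, and p-values were adjusted by Benjamini-Hochberg over all of them. Calls needed an adjusted p under 0.05, together with a 1.5-fold difference. Standard errors were the log2 fold change over the square root of F. A count of 0 allows up to 0.0238 to 0.0428 CPM per library (3 counts, counting error only). Libraries of a group differed by 5.63 to 24.5 times the sampling variance (chi-square per degree of freedom, 30 pairs), so none was counted as a duplicate. Between-library CV was 5.25%.

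The 9 members, the lists and the tests were chosen with earlier results of these data known. Genes named were all 9, the called genes of 6 lists (up to the 4 largest changes per list in each comparison with day 0), list genes not tested, the 3 nearest patterns, and Cirbp and Rbm3. Me3, Slc25a1, Idh1, G6pdx, Mid1ip1, Nfyb, Sp1, Arrdc4, Elovl6, Scd3, Scd4 and Mcat were named for their roles after their values were seen. Gene models came from GENCODE M21 (GRCm38, the same build as mm10) and promoter windows from RefSeq, in which all 9 genes were found and of which the 250 bases before the start were used. A comparison of paralog proteins was not analysed here. Alternatives were other scalings (RLE, total counts, the reference genes Hprt, Tbp and Ppia), other filters, DESeq2 1.42.0, only the groups compared, a replicate block, the library number series, a test against the fold limit and leaving out each library. The fit was tested on simulated data.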

Additional observations from a re-analysis of the deposited data

Results flagged for a closer look

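Each of the 27 sets of 5 libraries (9 genes in 3 groups) was searched for a library far from the rest, by the gap to its nearest neighbour over the whole range with a limit of 0.71. Chance gives about 1 in 20. Acly stood at 207.5 CPM in day 12 replicate 5, against 203 to 204 in the 4 others (gap 0.832 of the range), and the whole range was small beside the difference from day 1. Acss2 stood at 16.7 CPM in day 1 replicate 1, against 20.2 to 21.1 in the others (0.802), and without that library the day 1 value against day 0 was still called (−0.61).

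The effects of 1 and 12 days at 31°C differed in direction for Fasn and Thrsp. Fasn fell at day 1 and rose at day 12 against day 0, and the test of the difference itself gave a log2 value of 0.43 (edgeR adjusted p = 2.2e-11), higher in 5 of 5 day 12 libraries. Thrsp rose at day 1 and fell at day 12, with a difference of −1.09 (edgeR adjusted p = 3.46e-07), lower in 5 of 5 day 12 libraries. The causes were not tested.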

How the results depend on the processing

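Against TMM, total counts shifted the median log2 fold change of all genes to 0.21 (day 12 against day 0) and 0.18 (day 12 against day 1), and reference genes to −0.11 (day 1 against day 0) and 0.16 (day 12 against day 1). Of all called genes the share lower was 55.6% at day 12 against day 0 and 35.9% with total counts. At day 12 against day 1 it was 44.7%, with 27.3% for total counts and 29.0% for reference genes, and at day 1 it was 63.5%, with 75.8% for reference genes. At day 12 against day 0 both scalings called Acly higher and lost Acss2, so 1 gene was called either way. At day 12 against day 1, 2 lipogenic genes were called with each of them and 0 among genes of at least 10 CPM, a filter that removed Thrsp. A test against the fold limit itself (glmTreat) called 0 at day 1 (2 at an unadjusted p under 0.05) and 0 at day 12 against day 0 (0 unadjusted), where the test reported above and DESeq2 both called 2 and 1. Leaving out each library in turn gave 2 to 3 called at day 1, 1 to 2 at day 12 against day 0 (2 when replicate 3 or 4 of day 0 or replicate 2 of day 12 was left out) and 1 at day 12 against day 1.

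Signs turned for values near 0. Acaca at day 12 against day 1 became 0.048 with total counts and 0.030 with reference genes. Srebf1 at day 12 against day 0 became 0.19, 0.053 and, with no filter, 0.0017, and ran from −0.028 to 0.017 as libraries were left out. Acss2 at day 12 against day 1 ran from −0.0048 (without day 1 replicate 1) to 0.075. The cause was not tested. With a replicate block 2, 1 and 1 lipogenic genes were called in the 3 comparisons, as without it, and 9, 8 and 7 passed the adjusted p. Correlations of same-numbered libraries' deviations ran from −0.026 to 0.044 (median 0.019), and those of other pairs from −0.042 to 0.051 (median −0.0018). In both other groups, 5 of 15 libraries correlated best with their own number. These values do not settle whether the numbers pair the libraries. Within the larger library number series (4, 3 and 4 libraries) 3, 1 and 1 were called. DESeq2 and RLE changed no call.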
